A study of Mus musculus with 19 samples.

Results

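Expression of BMP signalling and Id genes was followed in hepatic stellate cells (HSCs), the vitamin A-storing pericytes of the liver sinusoid, during their first 96 h in culture. The 10 genes were Id1, Id2, Id3, Id4, Bmp5, Gdf2, Gdf10, Bmper, Smad6 and Bambi, each found by its symbol among the 55487 Ensembl gene rows of the count table, and all 10 were among the 15138 genes that passed the filter on low counts. HSCs of healthy male Balb/c mice aged 23 to 24 weeks had been sorted by their ultraviolet autofluorescence and were sequenced either freshly isolated (0 h, n = 2) or after 3, 6, 12, 18 (n = 3 each), 24 (n = 2) and 96 h (n = 3) on collagen-coated plates in DMEM with 10% serum. The culture medium was replaced after 3 and 24 h. The labels name no gene deletion, transgene or drug in any group, and each sample stands for 2 technical repeats. The study describes 3 independent repeats per time, while 0 h and 24 h have 2 samples here. Nothing in the labels says which samples came from separate mice, so p-values measure the spread between these samples only.

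Bone morphogenetic proteins (BMPs) are secreted dimers of the TGF-β superfamily that bring together type I and type II serine/threonine kinase receptors, which then phosphorylate SMAD1, SMAD5 and SMAD9. With SMAD4 these enter the nucleus, where the Id genes are among their best known direct targets. Id proteins carry a helix-loop-helix without a DNA-binding region, so they hold E proteins and other bHLH factors away from DNA. The pathway restrains itself through SMAD6, the pseudoreceptor BAMBI and secreted BMP-binding proteins such as BMPER, and in the liver HSCs are known as a main source of circulating BMP9, the product of Gdf2.

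Libraries were made from the 3′ ends of transcripts, so 1 count stands for 1 read near a polyadenylation site, and levels are given as CPM, the count relative to the TMM-scaled size of the library, which are read between times for 1 gene and not between genes. Total counts lay between 2073171 and 7690892, and a floor of 3 counts corresponded to 0.385 to 1.5 CPM per library, which covers counting error only. A level of 0 is therefore a level under that floor. Within a time, Pearson's r of log2 CPM between libraries was 0.768 for the 0 h pair and 0.802 to 0.868 in culture. The 0 h library of replicate 3 had the lowest total counts and the highest floor. The common biological coefficient of variation of the fit was 1.06. The labelled cell type was checked with 8 markers of HSCs (Lrat, Des, Rgs5, Reln, Pdgfrb, Dcn, Ecm1 and Colec11), all detected at 0 h with a summed level of 29748 to 34309 CPM. That sum was 5516 to 6568 CPM at 12 h and 2607 to 3092 CPM at 18 h. At both times all 8 genes were called lower than at 0 h, beside 9.1% and 8.21% of all genes tested. The sum was 2506 to 2926 CPM at 96 h, when 7 of the 8 genes were called lower than at 0 h. The 6 markers of activated HSCs (Acta2, Col1a1, Col1a2, Timp1, Lox and Tagln) summed to 907 to 1582 CPM at 0 h and 5141 to 7247 CPM at 96 h, when 5 of them were called higher and Col1a2 was not called. Markers of other liver cells also moved with time. The 5 hepatocyte genes summed to 2744 to 5981 CPM at 0 h and 75.6 to 311 CPM at 6 h. At 96 h they summed to 22.2 to 70.6 CPM. The 6 Kupffer cell and leukocyte genes summed to 238 to 260 CPM at 0 h and 9.93 to 17.7 CPM at 6 h. Their sum was 0 CPM at 96 h, when all 6 had no count. The 7 endothelial genes summed to 466 to 656 CPM at 0 h, 678 to 2360 CPM at 3 h and 6.92 to 119 CPM at 96 h. Of the 4 cholangiocyte genes, Krt19 and Krt7 had no count in any library. The 6 portal fibroblast and smooth muscle genes summed to 79.7 to 104 CPM at 0 h, 3.68 to 4.84 CPM at 18 h and 78.4 to 103 CPM at 96 h. In bulk RNA, fewer cells of a type and less RNA per cell cannot be told apart, and the part of these cells in the results below was not tested.

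The 2 ligand genes whose transcripts fell furthest are neighbours in the genome. Gdf10 occupies chr14:33923587-33937983 and Gdf2 chr14:33941039-33947198, both on the plus strand of GRCm38, with 3056 bases and 0 annotated genes from the end of one to the start of the other. RefSeq windows of 250 bases before the start of transcription were given for 8 of the 10 genes (GRCm38.p6), and 4 that hold no base of a GENCODE exon are shown, for these 2 ligands, for the inhibitory Smad6 and for Id4. They are written 5′ to 3′ on the gene's own strand. Capitals mark the letters of 3 short motifs known from SMAD binding, GGCGCC (the same on both strands), GGAGCC with its complement GGCTCC, and CAGAC with its complement GTCTG.
Gdf10 (chr14:33923337-33923586, plus strand): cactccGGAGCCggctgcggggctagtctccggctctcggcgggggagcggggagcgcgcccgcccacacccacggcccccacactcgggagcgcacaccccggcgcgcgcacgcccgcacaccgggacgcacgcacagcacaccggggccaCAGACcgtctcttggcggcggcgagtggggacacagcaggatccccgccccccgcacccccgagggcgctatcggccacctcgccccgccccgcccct
Gdf2 (chr14:33940789-33941038, plus strand): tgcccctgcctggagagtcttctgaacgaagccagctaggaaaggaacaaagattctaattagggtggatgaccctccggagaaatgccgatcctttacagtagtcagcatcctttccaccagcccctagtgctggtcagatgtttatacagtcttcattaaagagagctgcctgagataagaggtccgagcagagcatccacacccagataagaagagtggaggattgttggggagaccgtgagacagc
Smad6 (chr9:64022060-64022309, minus strand): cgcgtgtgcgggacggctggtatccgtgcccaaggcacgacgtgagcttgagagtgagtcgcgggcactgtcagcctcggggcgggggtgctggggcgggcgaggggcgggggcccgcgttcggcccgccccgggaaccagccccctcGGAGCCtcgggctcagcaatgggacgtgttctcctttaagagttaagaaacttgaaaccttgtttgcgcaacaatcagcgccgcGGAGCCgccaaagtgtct
Id4 (chr13:48260866-48261115, plus strand): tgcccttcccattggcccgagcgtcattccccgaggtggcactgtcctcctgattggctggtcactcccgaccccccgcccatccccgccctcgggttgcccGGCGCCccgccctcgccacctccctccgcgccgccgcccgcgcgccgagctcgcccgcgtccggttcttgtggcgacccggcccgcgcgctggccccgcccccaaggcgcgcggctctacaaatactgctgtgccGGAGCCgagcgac

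The Gdf10 window held 1 GGAGCC and 1 CAGAC, and the Gdf2 window none of the 3 motifs. The Smad6 window held 2 GGAGCC, and the Id4 window 1 GGCGCC and 1 GGAGCC. The Bmper window, which is not shown, also held no exon base and had 3 GGAGCC. In the windows of Bmp5, Id2 and Id3, 1, 161 and 250 of the 250 bases lay in GENCODE exons. Of the 8 windows, GGCGCC was present in 2 (Id2 and Id4), GGAGCC in 6 and CAGAC in 3 (Bmp5, Gdf10 and Id3). The same letters were found in 9.59%, 26% and 42.2%, respectively, of all 32851 RefSeq windows of that length. GC content of the windows was 78.8% for Gdf10 and 50.4% for Gdf2, with a median of 64.8% over the 8 genes and of 52.4% over all windows. A match is a description of letters and was not tested for binding.

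Of the 10 BMP and Id genes, 7 were called lower than in freshly isolated HSCs at 1 or more culture times and none was called higher. The other 3, Id4, Bmp5 and Bmper, were not called at any time in the fit of all libraries. Shares of all genes called lower are given below for single times. The share called lower at 1 or more times was not computed. The 10 genes were chosen with earlier results of these data known. A gene was called when its Benjamini-Hochberg adjusted p from edgeR's quasi-likelihood F test was below 0.1 and its fold change above 2, in 1 fit of all 19 libraries. All comparisons with 0 h share the same 2 libraries. At an unadjusted p below 0.05, 0 of the 10 genes were higher at any culture time by edgeR in this fit and 1 (Bmper at 96 h) by DESeq2, which called 0 higher. In edgeR fits of the 2 groups alone, 1 (Bmper at 96 h) was higher at that level and was also called. At 3 h, 1 of the 10 genes was called lower (Id3) and 0 higher, where 1.39% of all genes tested were called lower and 4.19% higher. At 6 h, 5 were lower (Id1, Id2, Id3, Gdf2 and Smad6) and 0 higher, against 4.35% and 6.98% of all genes. At 12 h, 5 were lower (Id2, Id3, Gdf2, Gdf10 and Bambi) and 0 higher, against 9.1% and 8.6% of all genes.

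At 18 h, when most of these genes were called, 6 were lower (Id1, Id2, Id3, Gdf2, Gdf10 and Bambi) and 0 higher, beside 8.21% and 7.64% of all genes. At 24 h, 4 were lower (Id2, Id3, Gdf2 and Gdf10) and 0 higher, beside 3.86% and 5.65%. At 96 h, 3 were still lower (Id3, Gdf2 and Gdf10) and 0 higher, beside 5.03% and 5.83%. The median log2 fold change of the 10 genes against 0 h was −1.09, −2.23, −2.77, −3.45, −2.97 and −1.78 after 3, 6, 12, 18, 24 and 96 h, respectively. Over all genes tested the median was 0 at each time up to 24 h and 0.07 at 96 h. The test over all 7 times called 5 of the 10 genes (Id1, Id2, Id3, Gdf2 and Gdf10) at an adjusted p below 0.1, and 27.4% of all genes.

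**Figure D1:**
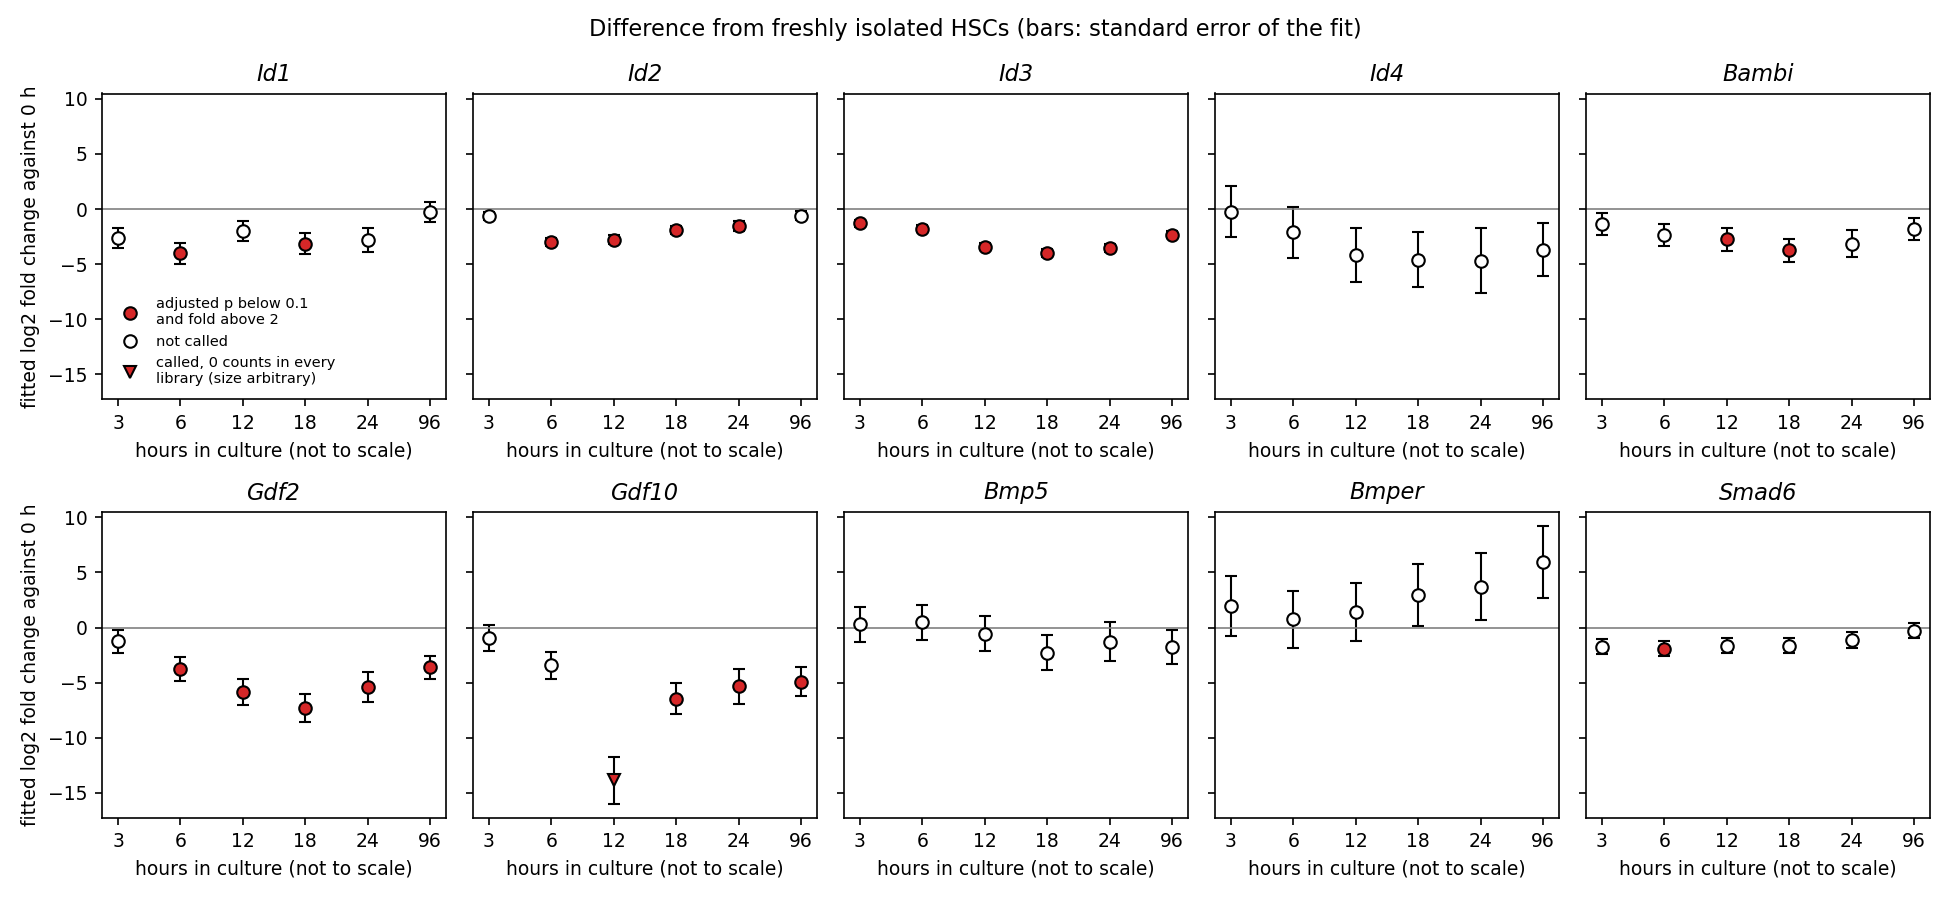
Fitted log2 fold change of each gene against freshly isolated HSCs (y axis) at 3 to 96 h of culture (x axis, not to scale). Bars give an approximate standard error, the absolute log2 change divided by the square root of the F statistic, and filled symbols mark called genes. Id3 was called at all 6 times, Gdf2 at all times from 6 h on, and no gene was called higher; the triangle for Gdf10 at 12 h marks a time without a count, where the drawn size is arbitrary.

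Gdf2, which encodes BMP9, a ligand of the type I receptor ALK1, showed the deepest fall among the genes still detected at every time. It was at 439 and 513 CPM in the 0 h libraries and at 211, 152 and 233 CPM at 3 h. At 6 h its level was 23.1, 27.8 and 52.4 CPM, at 12 h 5.55, 15.9 and 3.87 CPM, and at 18 h 0, 0 and 8.74 CPM. At 24 h it was 4.29 and 17.8 CPM and at 96 h 35.5, 39.2 and 41.0 CPM. No library of any culture time reached the 0 h range, and at 96 h all 3 libraries lay above all 8 libraries of 12 to 24 h. The fitted fall from 0 h was 13.8-fold at 6 h (log2 −3.79 ± 1.08 (SE), adjusted p = 0.0358, edgeR), 159-fold at 18 h (−7.31 ± 1.26, adjusted p = 8.44e-04) and 12.3-fold at 96 h (−3.62 ± 1.07, adjusted p = 0.0458). At 12 h the log2 change was −5.81 ± 1.17 (adjusted p = 0.00273) and at 24 h −5.41 ± 1.37 (adjusted p = 0.0210), while at 3 h it was −1.26 ± 1.02 and was not called (adjusted p = 0.604), other than in a fit of the 2 groups alone (0.0484, the lowest over the alternatives, whose highest was 0.826). The call at 6 h was lost without either 0 h library or without 6 h replicate 1 or 2 (adjusted p from 0.102 to 0.126), at 24 h without replicate 1 (0.196), and at 96 h without any single library (0.127 to 0.152). Without 12 h replicate 2 the 12 h change was −6.69 and without 24 h replicate 2 the 24 h change was −6.78, while without 18 h replicate 3 no Gdf2 count was left at 18 h.

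Gdf10 encodes BMP3b, a divergent ligand of the same superfamily. Its level was 323 and 447 CPM at 0 h, 142, 170 and 301 CPM at 3 h and 42.1, 13.5 and 52.9 CPM at 6 h. At 12 h it had no count in any of the 3 libraries, which is at least 554-fold lower than at 0 h when set against the highest floor of those libraries (0.694 CPM). It was then listed at 13.4, 0 and 0 CPM at 18 h, at 11.8 and 7.45 CPM at 24 h and at 17.2, 7.49 and 13.6 CPM at 96 h. Every culture library was below both 0 h libraries, and every library from 12 h on was below every 3 h library. Gdf10 was called lower at 12 h (adjusted p = 4.74e-04, edgeR), at 18 h (log2 −6.47 ± 1.41, adjusted p = 0.00714), at 24 h (−5.33 ± 1.59, adjusted p = 0.0586) and at 96 h (−4.92 ± 1.31, adjusted p = 0.0302). At 6 h the change was −3.41 ± 1.23 and missed the threshold (adjusted p = 0.113). With the replicate number as a block the 6 h change was −3.93 and was called (adjusted p = 0.0709, range over the alternatives 0.0332 to 0.306), and the 18 h change was −7.52. The 24 h call was lost without any 1 of the 4 libraries (0.112 to 0.355) and the 96 h call without 0 h replicate 3 or 96 h replicate 2 (0.105 and 0.113). Without 18 h replicate 3 the 18 h change was −5.87, and without replicate 1 no count was left at that time.

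Bmp5, another BMP ligand, was not called at any time in the fit of all libraries and had widely spread levels. At 0 h it was at 115 and 149 CPM, and at 3 h at 200, 181 and 101 CPM. At 6 h it ranged from 59.9 to 392 CPM and at 12 h from 0 to 178 CPM, with replicate 3 the highest library at 6 h and at 0 at 12 and 18 h. In those later libraries a 0 beside well covered replicates was not frequent but occurred elsewhere: of genes averaging 20 CPM or more at the time, 2.75% had a library at 0 at 12 h and 4.56% at 18 h. At 96 h Bmp5 was at 58.3, 41.9 and 15.8 CPM, below both 0 h libraries, with a fitted log2 change of −1.77 ± 1.57 (adjusted p = 0.566, edgeR). In a fit of the 0 h and 96 h libraries alone this change was called lower (log2 −1.77, adjusted p = 0.0958, the lowest over the alternatives, whose highest was 0.770). The direction at 3, 6 and 12 h turned with single libraries or the block, so none is given for those times. The span of Bmp5 (chr9:75775364-75900310, plus strand) overlaps Gm26903 on the minus strand, which was at 563 and 565 CPM at 0 h and had no count in the 3 libraries of 12 h, and Gm47723 on the plus strand, with at most 3.77 CPM in any library. Whether counting used the strand is not given in the sources used here, so reads of overlapping genes cannot be told apart.

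**Figure D2:**
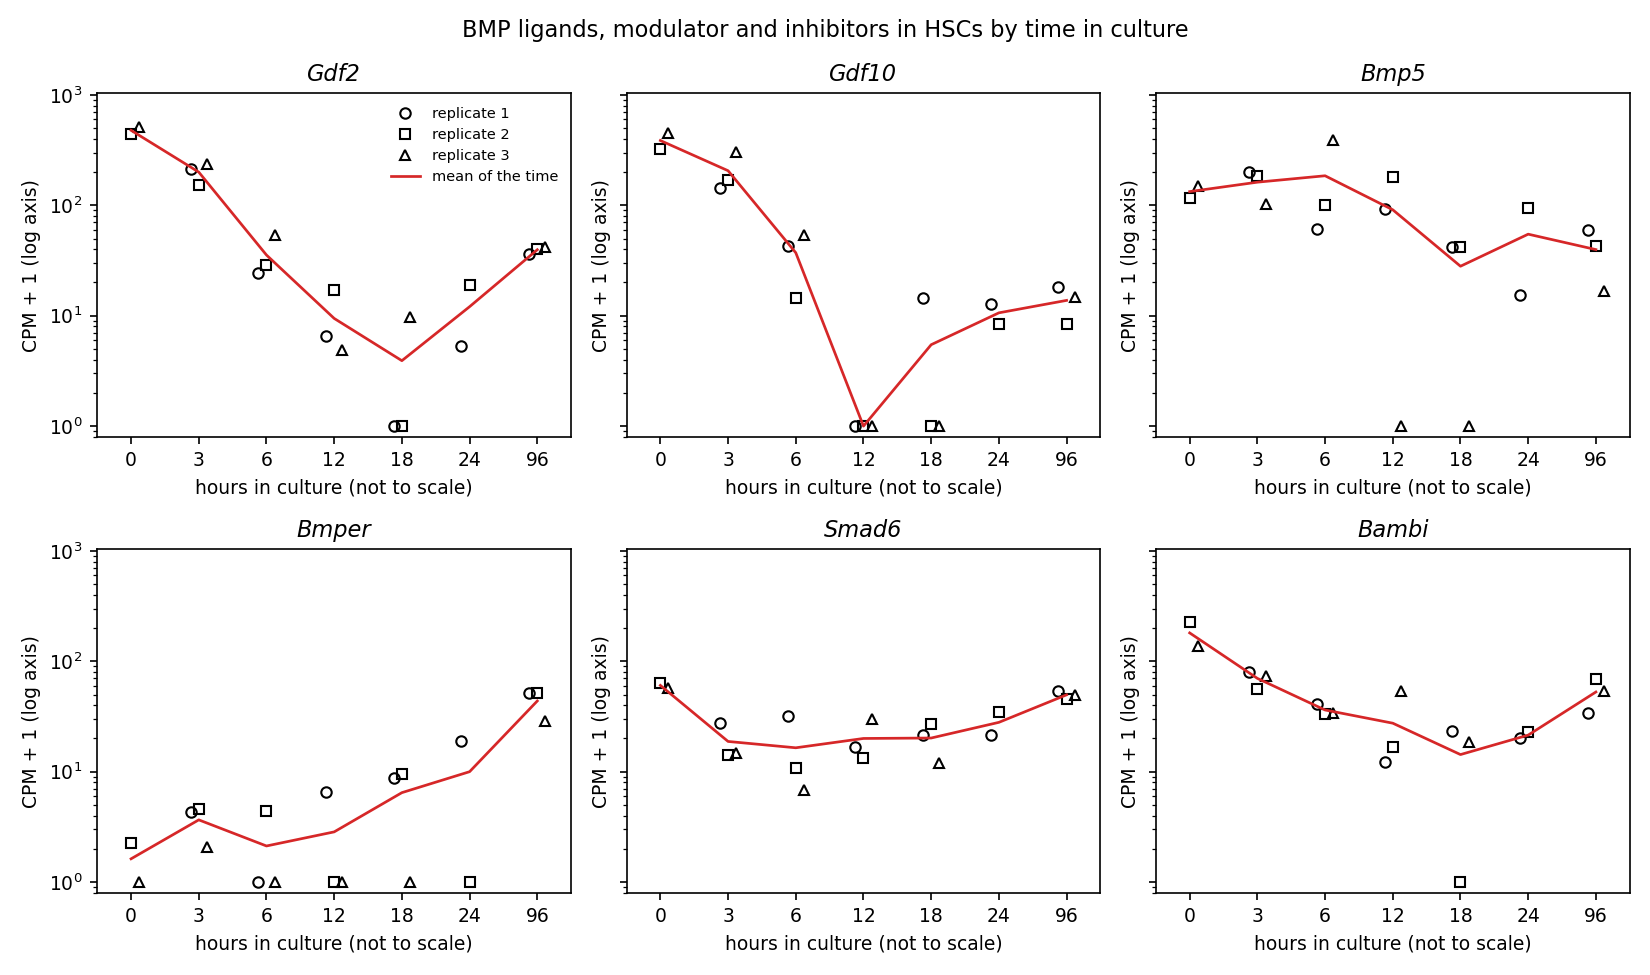
Level of the ligand genes Gdf2, Gdf10 and Bmp5, the modulator Bmper and the inhibitors Smad6 and Bambi in each library as CPM + 1 on a log axis (y) against hours of culture (x, not to scale), with 1 symbol per replicate number and a line through the mean of each time. Gdf10 lies at 0 CPM in all 3 libraries of 12 h, and Bmper is highest in the 3 libraries of 96 h.

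Bmper, which encodes a secreted chordin-like protein that binds BMPs, was near the floor until late in culture. It was at 1.25 and 0 CPM at 0 h, and no library of 3 to 12 h exceeded 5.55 CPM. At 18 h it was at 7.79, 8.59 and 0 CPM and at 24 h at 18.0 and 0 CPM. At 96 h all 3 libraries, at 50.3, 50.2 and 27.6 CPM, lay above the other 16. The fitted log2 change at 96 h was 5.94 ± 3.28 and did not pass the test over all genes (adjusted p = 0.314, edgeR). Fitted with the 0 h and 96 h libraries alone it was 5.83 and was called (adjusted p = 0.0313, the lowest over the alternatives, whose highest was 0.640). The sum of the activated HSC markers also lay higher at 96 h (5141 to 7247 CPM) than at any earlier time (at most 2177 CPM). The sum of the portal fibroblast and smooth muscle markers was 79.7 to 104 CPM at 0 h, 3.68 to 22.3 CPM at 12 to 24 h and 78.4 to 103 CPM at 96 h. Single markers of this list moved in opposite directions. From 0 h to 96 h the mean of Eln went from 64.5 to 2.69 CPM, of Cnn1 from 0 to 50.0 CPM and of Myh11 from 16.2 to 35.8 CPM. Means of Thy1, Cd34 and Mfap4 were lower at 96 h than at 0 h. The part of these cells in the Bmper level was not tested.

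Among the 10 genes, both inhibitors of the receptor and SMAD level, Smad6 and Bambi, had lower levels early in culture. Smad7, which is not among the 10 genes, had means of 65.5, 57.8 and 72.9 CPM at 0, 3 and 6 h. Its means were 68.1, 82.8, 74.9 and 93.1 CPM at 12, 18, 24 and 96 h. Smad6, which encodes an inhibitory SMAD that competes for activated type I receptors, was at 62.3 and 56.6 CPM at 0 h and at 26.5, 13.2 and 13.7 CPM at 3 h. It was at 30.8, 9.73 and 5.84 CPM at 6 h, at 15.7, 12.2 and 29.1 CPM at 12 h and at 20.4, 26.1 and 11 CPM at 18 h. At 24 h its level was 20.6 and 33.4 CPM, and at 96 h 53.2, 44.2 and 48.6 CPM. Every library of 3 to 24 h was below every library of 0 h and of 96 h, and the 96 h libraries lay just under the lower 0 h value. The fall at 6 h, 3.86-fold, was called (log2 −1.95 ± 0.68, adjusted p = 0.0933, edgeR), while at 96 h the change was −0.29 ± 0.68 (adjusted p = 0.895). At 3, 12 and 18 h the changes of −1.74, −1.65 and −1.63 were not called by edgeR (adjusted p = 0.212, 0.125 and 0.136) and were called by DESeq2 (0.0545, 0.0223 and 0.0263, the lowest over the alternatives, whose highest were 0.518, 0.323 and 0.313). The 6 h call was lost without either 0 h library or without 6 h replicate 2 or 3 (adjusted p from 0.198 to 0.263), and without 6 h replicate 1 the change was −2.93. It was also lost with scaling by library size alone (0.109), without the filter on low counts (0.184) and in a fit of the 2 groups alone (0.248), with a range of 0.00935 to 0.263 over all its alternatives.

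Bambi encodes a receptor-like membrane protein without a kinase domain that dampens BMP and TGF-β signals. It was at 224 and 135 CPM at 0 h, at 78.8, 54.8 and 73.3 CPM at 3 h and at 40.0, 32.6 and 33.0 CPM at 6 h. The later levels were 11.3, 15.8 and 52.4 CPM at 12 h, 22.4, 0 and 17.5 CPM at 18 h, 19.1 and 21.8 CPM at 24 h and 33.2, 68.6 and 53.3 CPM at 96 h. No culture library reached the 0 h range. Bambi was called 6.77-fold lower at 12 h (log2 −2.76 ± 1.04, adjusted p = 0.0930, edgeR) and 13.6-fold lower at 18 h (−3.76 ± 1.07, adjusted p = 0.0294), and at 96 h its change was −1.80 ± 1.02 (adjusted p = 0.327). The changes at 6 h (−2.35, adjusted p = 0.188) and 24 h (−3.13, adjusted p = 0.161) were called by DESeq2 (0.0579 and 0.0194) and in fits of the 2 groups alone (0.0205 and 0.0233), with ranges over the alternatives of 0.0205 to 0.524 and 0.0194 to 0.488. Fits of the 2 groups alone also called it at 3 h and 96 h (0.0719 and 0.0369, the lowest over the alternatives, whose highest were 0.892 and 0.725). With the replicate number as a block the 12 h change was −2.95 and no longer called (adjusted p = 0.109, range over the alternatives 0.0163 to 0.323), as was so with scaling by library size alone (0.105). The 12 h call was lost without either 0 h library or without 12 h replicate 1 or 2 (0.150 to 0.323), and without 12 h replicate 3 the change was −3.73. The 18 h call was lost without 0 h replicate 2 (0.129) and in a fit of the 2 groups alone (0.193), and without 18 h replicate 1 the change was −4.36.

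Among the Id genes, Id3 had the steadiest record. It was at 2473 and 1718 CPM at 0 h, at 611, 1023 and 941 CPM at 3 h and at 633, 568 and 591 CPM at 6 h. It went on to 228, 232 and 132 CPM at 12 h, 193, 114 and 92.1 CPM at 18 h and 224 and 138 CPM at 24 h. At 96 h it was at 400, 455 and 407 CPM. All culture libraries were below both 0 h libraries, and the 96 h libraries lay above all libraries of 12 to 24 h and below all of 6 h. Id3 was called at each time, 2.44-fold lower at 3 h (log2 −1.29 ± 0.32, adjusted p = 0.0282, edgeR), 3.51-fold at 6 h (−1.81 ± 0.32, adjusted p = 0.00136) and 15.7-fold at 18 h (−3.98 ± 0.34, adjusted p = 8.31e-07). At 12 h the log2 change was −3.41 ± 0.33 (adjusted p = 2.97e-06), at 24 h −3.53 ± 0.39 (adjusted p = 1.94e-05) and at 96 h −2.32 ± 0.32 (adjusted p = 1.60e-04). The 3 h call was lost without 0 h replicate 2 (−0.97, adjusted p = 0.292) or 3 h replicate 1 (−1.06, adjusted p = 0.117), and the calls of the later times held without any single library.

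Id2 fell mainly between 3 and 6 h. Its level was 235 and 195 CPM at 0 h, 106, 157 and 149 CPM at 3 h and 13, 33.2 and 34.3 CPM at 6 h. It then was at 25.7, 25.8 and 43.1 CPM at 12 h, 60.9, 54.9 and 56.2 CPM at 18 h and 96.0 and 53.0 CPM at 24 h. At 96 h it was at 146, 108 and 171 CPM, which overlapped the 3 h range and stayed below both 0 h libraries. The change from 0 h was −0.65 ± 0.39 at 3 h (adjusted p = 0.465, edgeR), −3.00 ± 0.40 at 6 h (8-fold lower, adjusted p = 1.27e-04) and −2.77 ± 0.40 at 12 h (adjusted p = 1.41e-04). At 18 h it was −1.91 ± 0.39 (adjusted p = 0.00342), at 24 h −1.53 ± 0.44 (adjusted p = 0.0429) and at 96 h −0.60 ± 0.39, which was not called (adjusted p = 0.395). The 24 h call was lost with the replicate number as a block (log2 −1.36, adjusted p = 0.112, range over the alternatives 0.00102 to 0.418), and without 0 h replicate 2 (0.211) or 24 h replicate 2 (0.418).

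Id1 reached its lowest level at 6 h and was back within the 0 h range in 1 library at 96 h. It was at 75.6 and 43.6 CPM at 0 h, at 16.9, 6.22 and 5.66 CPM at 3 h and at 1.78, 6.16 and 2.92 CPM at 6 h. At 12 h its level was 11.6, 21.0 and 13.1 CPM, above all 3 libraries of 6 h. At 18 h it was at 2.43, 7.36 and 10.4 CPM, and at 24 h at 15.4 and 1.67 CPM. At 96 h Id1 was at 39.8, 39.8 and 67.9 CPM, above every library of 3 to 24 h and overlapping the 0 h libraries. It was called 16.3-fold lower at 6 h (log2 −4.03 ± 0.95, adjusted p = 0.0119, edgeR) and 8.81-fold lower at 18 h (−3.14 ± 0.92, adjusted p = 0.0343). At 3, 12 and 24 h the change was −2.64 ± 0.91, −1.97 ± 0.90 and −2.80 ± 1.06 and was not called (adjusted p = 0.143, 0.166 and 0.145, edgeR). DESeq2 called all 3 of these changes (adjusted p = 0.0192, 0.0409 and 0.0115, the lowest over the alternatives, whose highest were 0.532, 0.559 and 0.586). At 96 h it was −0.28 ± 0.90 (adjusted p = 0.940), an interval that leaves room for a change in either direction. Without 6 h replicate 2 the 6 h change was −4.68, and the 18 h call was lost without 0 h replicate 2 (0.184) or 18 h replicate 1 (0.108).

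Id4 was at 62.6 and 63.1 CPM at 0 h and at 59.9, 69.6 and 29.4 CPM at 3 h. From 12 h on it was at or under 9.49 CPM in all 11 libraries, 5 of which were at 0, and no library from 6 h on reached the 0 h level. Id4 was not called at any time. The fitted change was −2.11 ± 2.31 at 6 h (adjusted p = 0.635, edgeR), −4.61 ± 2.50 at 18 h (adjusted p = 0.255) and −3.68 ± 2.41 at 96 h (adjusted p = 0.403). Without 18 h replicate 3, the 1 library with counts at that time, the 18 h comparison was called (adjusted p = 0.0890, range over the alternatives 0.0890 to 0.429). The span of Id4 (chr13:48261228-48266026, plus strand) overlaps A330033J07Rik and Gm49291 on the minus strand, and both had no count in any library.

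**Figure D3:**
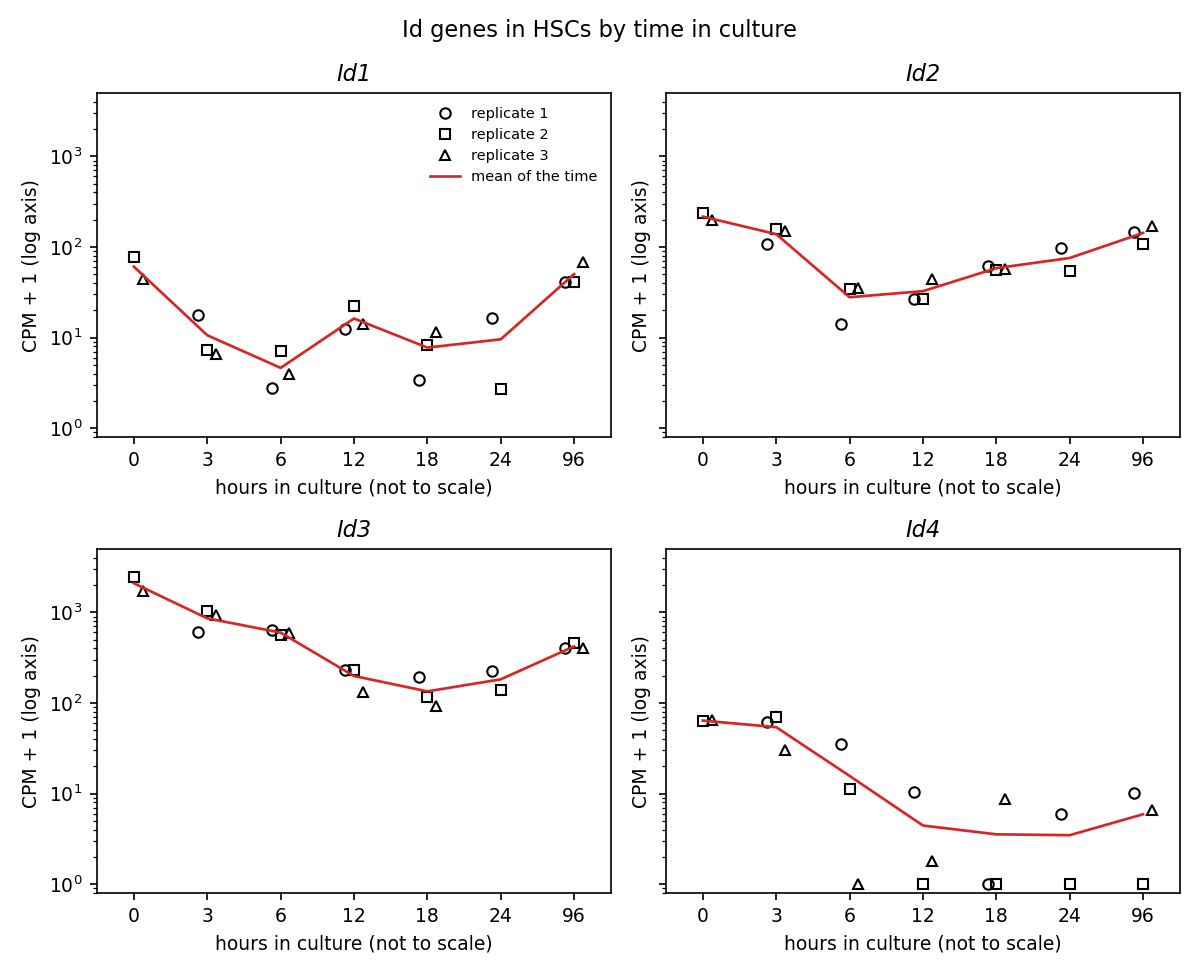
Level of Id1, Id2, Id3 and Id4 in each library as CPM + 1 on a log axis (y) against hours of culture (x, not to scale), with 1 symbol per replicate number and a line through the mean of each time. Id1 and Id2 have their lowest mean at 6 h (3.62 and 26.8 CPM), Id3 at 18 h (133 CPM) and Id4 at 24 h (2.46 CPM).

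Sizes were also read within a replicate number, where the sign of a called difference is given beforehand because the groups did not overlap. On the log2 CPM scale Id3 at 6 h differed from its own 0 h library by −2.12 in replicate 2 and −1.54 in replicate 3. The corresponding differences at 6 h were −2.81 and −2.50 for Id2, −3.53 and −3.72 for Id1, and −3.96 and −3.28 for Gdf2. At 96 h Id3 differed by −2.44 and −2.08, while Id1 differed by −0.92 in replicate 2 and by 0.64 in replicate 3. Bmper at 96 h differed by 4.92 and 6.08, and Bmp5 at 6 h by −0.20 and 1.39. Replicate 1 had no 0 h library.

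Neighbouring times were compared to place the changes, in contrasts that do not share the 0 h libraries. From 3 to 6 h, Id2 was the 1 gene called lower (5.10-fold, log2 −2.35 ± 0.37, adjusted p = 0.00215, edgeR) and 0 were higher, beside 1.99% of all genes lower and 2.5% higher. From 6 to 12 h, Id3 (3.03-fold, log2 −1.60 ± 0.30, adjusted p = 0.0102) and Gdf10 (to 0 in all libraries, adjusted p = 0.0211) were called lower and 0 were higher, beside 1.42% and 0.416%. Between 12 and 18 h 0 of the 10 genes were called in either direction, with 0.152% of all genes lower and 0.0727% higher, while 2 (Id2 and Gdf10) had an unadjusted p below 0.05 and DESeq2 called 1 (Gdf10). Between 18 and 24 h 0 were called, with 0.0264% of all genes lower and 0.0132% higher, while 0 had an unadjusted p below 0.05 and DESeq2 called 0. From 24 to 96 h Id3 was called 2.32-fold higher (log2 1.22 ± 0.34, adjusted p = 0.0834) and 0 were lower, beside 1.37% of all genes higher and 1.35% lower. That rise was lost without any 1 of the 5 libraries compared (adjusted p from 0.109 to 0.816) and with scaling by library size alone (0.136).

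The other genes of the pathway were read from 6 lists of ligands, receptors, extracellular modulators, intracellular regulators, BMP targets and partners of the Id proteins. Of 82 genes listed beside the 10, 52 passed the filter. Against 0 h, 6, 11, 9, 10, 9 and 4 were called higher after 3, 6, 12, 18, 24 and 96 h, respectively, and 2, 5, 12, 10, 6 and 8 were called lower. Of all genes tested, 4.19%, 6.98%, 8.6%, 7.64%, 5.65% and 5.83% were called higher at these times. The shares called lower were 1.39%, 4.35%, 9.1%, 8.21%, 3.86% and 5.03%. The median log2 change of the 52 genes lay between −0.50 at 12 h and 0.12 at 3 h. The test over all times called 28 of the 52, beside 27.4% of all genes. Calls in both directions were present at each time, as over all genes, and the difference from the 10 genes was not tested. The 10 genes and the lists were chosen with earlier results of these data known, and this choice can shape the contrast.

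**Figure D4:**
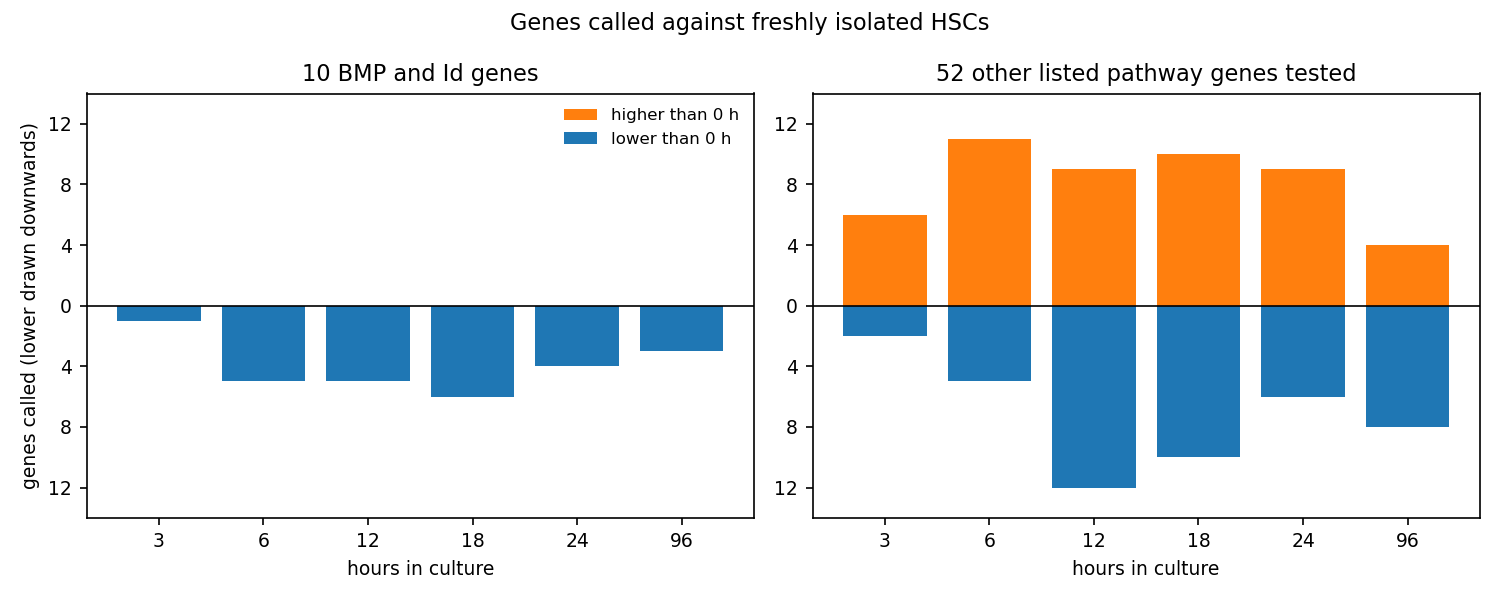
Number of genes called higher (upwards) and lower (downwards) than in freshly isolated HSCs (y axis) at each culture time (x axis), for the 10 BMP and Id genes (left) and the 52 other listed pathway genes that were tested (right). Calls of the 10 genes are all downwards and reach 6 at 18 h, while the other genes have calls both ways, 11 higher at 6 h and 12 lower at 12 h. Both sets were chosen with earlier results of these data known. Of all genes tested, 8.21% were called lower at 18 h, 6.98% higher at 6 h and 9.1% lower at 12 h.

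Other ligand genes moved in different directions. Bmp10, which shares the ALK1 receptor with BMP9, was at 323 and 304 CPM at 0 h and at 1779, 3455 and 1958 CPM at 6 h. It was called higher from 3 to 18 h, by log2 2.93 ± 0.36 at 6 h (adjusted p = 6.37e-05, edgeR). Bmp2, at 233 and 178 CPM at 0 h, was called higher at 3 h (1.37 ± 0.29, adjusted p = 0.00924) and 6 h (1.39 ± 0.29, adjusted p = 0.00463) and lower at 24 h (−1.09 ± 0.30, adjusted p = 0.0359) and 96 h (−2.83 ± 0.28, adjusted p = 5.61e-06), when its libraries were at 40.9, 26.5 and 19.7 CPM. Bmp4, at 167 and 229 CPM at 0 h, was called lower at all 6 times, by −2.31 ± 0.41 at 18 h (adjusted p = 0.00104). Bmp6 had no count at 0 h, was called higher from 3 to 24 h at least 18.0-fold higher at 18 h (35.3, 38.9 and 7.07 CPM), and again had no count in the 3 libraries of 96 h. Bmp2 and Bmp6 are known from sinusoidal endothelial cells, whose 7 markers summed to 466 to 656 CPM at 0 h, 678 to 2360 CPM at 3 h and 180 to 738 CPM at 6 h. At 12 and 18 h, when Bmp6 was highest, the sums were 126 to 559 and 142 to 445 CPM. Single markers differed: at 0, 12, 18 and 96 h the mean of Cdh5 was 34.3, 131, 159 and 14.2 CPM. Means at these times were 0, 15.8, 9.07 and 0 CPM for Lyve1 and 24.3, 28.4, 34.8 and 15.6 CPM for Pecam1. Those of Stab2, Kdr, Clec4g and Oit3 were lower at 12 and 18 h than at 0 h. By edgeR none of the 7 markers was called higher at 12 or 18 h, and Oit3 was called lower at 18 h (adjusted p = 0.0696). The part of these cells was not tested.

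**Figure D5:**
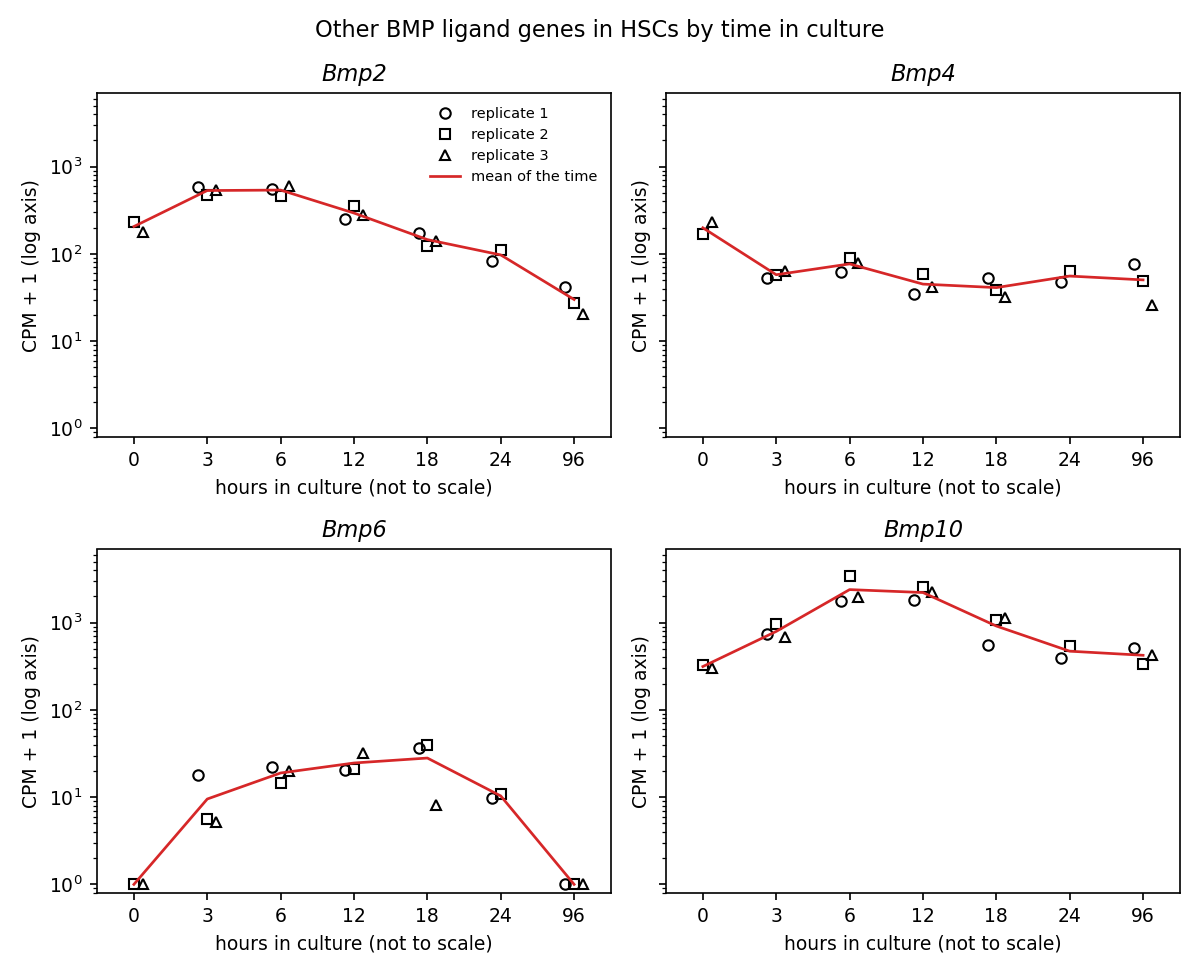
Level of Bmp2, Bmp4, Bmp6 and Bmp10 in each library as CPM + 1 on a log axis (y) against hours of culture (x, not to scale), with 1 symbol per replicate number and a line through the mean of each time. Bmp10 reaches 1779 to 3455 CPM at 6 h, and Bmp6 lies at 0 CPM in all libraries of 0 h and 96 h.

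Of 11 receptor and co-receptor genes tested besides Bambi, 1 was called higher and 4 lower at 18 h, beside 7.64% and 8.21% of all genes. Tgfbr3, the co-receptor betaglycan, was at 458 and 415 CPM at 0 h and 64.9, 59.0 and 50.6 CPM at 96 h (log2 −2.91 ± 0.31, adjusted p = 1.14e-05, edgeR) and was called lower from 6 h on. Rgma, a BMP co-receptor of the repulsive guidance family, was at 6.01 and 4.51 CPM at 0 h and 75.2, 73.9 and 56.0 CPM at 12 h (3.68 ± 0.85, adjusted p = 0.00715) and was called higher from 6 to 24 h. Among 8 other extracellular modulators, 2 were called higher and 3 lower at 12 h, beside 8.6% and 9.1% of all genes. Twsg1, which acts with chordin on BMPs, fell from 89.8 and 60.6 CPM at 0 h to 7.79, 1.23 and 9.11 CPM at 18 h (−3.64 ± 0.79, adjusted p = 0.00516). Kcp, a chordin-like protein, had no count from 12 h on and was at least 28.3-fold lower at 12 h than at 0 h (adjusted p = 0.0816). Nbl1, a BMP antagonist of the DAN family, was at 12.8 and 1.00 CPM at 0 h, had no count at 12 h (called lower, adjusted p = 0.0995) and was at 34.6, 11.5 and 65.2 CPM at 96 h. Its 0 h level rests on replicate 2 with 51 counts, as the 2 counts of replicate 3 lie under the floor, so no fold is given.

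Among 14 other SMADs and intracellular regulators, 5 were called higher and 1 lower at 6 h, beside 6.98% and 4.35% of all genes. Nedd4l, a ubiquitin ligase, was at 45.0 and 51.6 CPM at 0 h and 293, 316 and 266 CPM at 6 h (log2 2.59 ± 0.33, adjusted p = 7.19e-05, edgeR). Skil, the SMAD corepressor SnoN, was highest at 3 h (2.26 ± 0.32, adjusted p = 3.68e-04), at 202, 150 and 180 CPM against 39.5 and 34.1 CPM at 0 h. Smad5, a receptor-activated SMAD of the BMP branch, was called lower at 24 and 96 h, by −2.37 ± 0.34 at 96 h (adjusted p = 2.44e-04). Of 7 other target genes and 6 bHLH partners tested, 2 and 2 were called lower at 12 h, beside 9.1% of all genes. Hes1, a repressor that also responds to Notch, was called lower at all 6 times and was at 2580 and 2227 CPM at 0 h and 118, 154 and 148 CPM at 18 h (−4.10 ± 0.42, adjusted p = 5.46e-06). Hand2, a bHLH factor of the stellate lineage, was at 530 and 493 CPM at 0 h, 0, 3.90 and 0 CPM at 12 h (−8.58 ± 1.83, adjusted p = 0.00423) and 119, 129 and 153 CPM at 96 h.

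The genes whose log2 CPM followed each of the 10 most closely over the 19 libraries were listed as a description. Among genes averaging 10 CPM or more, Id3 was most like Lum (Pearson's r = 0.936), Col3a1 (0.930) and Laptm4a (0.929). Gdf10 was most like Tbx20 (0.942), Enpp5 (0.935) and Lix1l (0.926), and Gdf2 most like Angptl2 (0.921), Neto1 (0.920) and Tshz2 (0.917). Bambi was most like Clca3a1 (0.922), Ptms (0.915) and Sdc2 (0.910), and Id2 most like Fads2 (0.914), Pianp (0.910) and Crip2 (0.907). The closest genes of Id4 were Gpr182 (0.928), Dhrs3 (0.914) and Oit3 (0.908), the last of which is also on the endothelial marker list. For Id1 they were Afap1l2 (0.818), Mpc2 (0.805) and Lbh (0.799), for Smad6 Ankrd40 (0.826), Serf2 (0.824) and Casc4 (0.807), for Bmp5 Cxxc5 (0.834), Map3k1 (0.822) and Pink1 (0.815), and for Bmper Aldoa (0.850), Mcm3 (0.782) and Ecscr (0.778).

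Among the 10 genes themselves, over the same 19 libraries, Id3 and Gdf10 were most alike (r = 0.877), followed by Id3 and Gdf2 (0.843), Gdf2 and Bambi (0.783) and the neighbouring genes Gdf2 and Gdf10 (0.755). Id1 and Id3 had an r of 0.321, Id1 and Id2 of 0.621, and Bmper and Gdf2 of −0.186. The points share their libraries, their depth and the course of time.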

How the data were processed

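The authors deposited raw counts per Ensembl gene for 19 samples, whole numbers without normalization, from single-end 3′ end RNA sequencing. STAR, StringTie and the build mm10 are named in the submitters' processing notes, and the counting tool is not given in the sources used here. No column was left out. Groups and replicate numbers were taken from the sample labels.

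The counts were analysed with edgeR 4.0.16 (R 4.3.3, limma 3.58.1): filterByExpr, TMM scaling and 1 quasi-likelihood fit with the 7 times as groups, tested for each time against 0 h, for 5 neighbouring steps and over all times, with Benjamini-Hochberg adjustment over all genes tested. Levels are TMM-scaled CPM, and log2 CPM used a prior count of 2. Standard errors (SE) are approximate: each is the absolute log2 change divided by the square root of its F statistic. The script was tested on simulated data. DESeq2 1.42.0 (Wald test, likelihood ratio test over all times), library size scaling, no filter, a replicate block, fits of 2 groups, an adjusted p below 0.05 and leaving out each library were the alternatives. The 10 genes and all gene lists were chosen with earlier results of these data known. Named pathway genes are the 14 with the largest absolute log2 change among those called against 0 h averaging 10 CPM or more at 1 time, and for each of the 10 genes the 3 most correlated genes are named. Gene spans are from GENCODE M21 (GRCm38) and promoters from RefSeq. Replicate 1 and 3 carry 1 isolation tag in the labels and replicate 2 another. The block and the pairs were formed by replicate number, and same-numbered libraries also share a tag. Deviations from the time means had a mean correlation of 0.0143 between 51 same-numbered pairs and −0.00704 between 103 others. Those others include pairs of replicates 1 and 3 with the same tag, so a difference between tags was not tested. Figures were drawn with matplotlib 3.10.9 in Python 3.11.15.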

Additional observations from a re-analysis of the deposited data

How the results depend on the processing

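Of 28 calls of single genes, 28 were kept with DESeq2, 27 without the filter, 26 with the replicate block, 26 in fits of the 2 groups alone, 25 with library size scaling and 24 at an adjusted p below 0.05, and no called value changed its sign under these alternatives. Leaving out either 0 h library, which all comparisons with 0 h share, lost more calls than any of these alternatives. Such a fit leaves 1 library at 0 h. Single changes called in addition numbered 9 with DESeq2, 9 in fits of the 2 groups alone, 1 without the filter and 1 with the block. Counts of the 10 genes called moved as follows. At 3 h against 0 h (main count 1) DESeq2 gave 3, the 2 groups alone 3, and leaving out single libraries 0 to 1. Leaving out single libraries gave 3 to 4 at 6 h (main 5), 2 to 3 at 24 h (main 4) and 1 to 2 at 96 h (main 3), where the 2 groups alone gave 6. For 6 against 3 h (main 1) DESeq2 gave 2 and the 2 groups alone 3. For 18 against 12 h (main 0) DESeq2 gave 1 and single libraries left out 0 to 1, as for 24 against 18 h (main 0 and 0 to 1). For 96 against 24 h (main 1) library size scaling gave 0, an adjusted p below 0.05 gave 0, single libraries left out 0 to 0, and DESeq2 2. Changes that reversed their sign, none of them called, were Id4 at 3 h without 3 h replicate 3 (0.082, lowest without another library −0.45), Bmp5 at 3 h with the replicate block (−0.065), at 6 h without 6 h replicate 3 (−0.72, highest 0.90) and at 12 h without 12 h replicate 3 (0.033, lowest −1.55), Bmper at 6 h without 0 h replicate 3 (−0.16) or 6 h replicate 2 (−4.76, highest 5.56), at 12 h without replicate 1 (−4.76, highest 6.17) and at 24 h without replicate 1 (−4.77, highest 8.46), and Id1 at 96 h without 0 h replicate 2 (0.17, lowest −0.62). The cause was not tested. Fewer libraries were fitted in each of these cases other than the replicate block, which used all 19.

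With the replicate block the members called were 1, 6, 4, 6, 3 and 3 at 3 to 96 h against 0 h, and it changed no call other than Gdf10 at 6 h, Bambi at 12 h and Id2 at 24 h. Library size scaling moved the median log2 change of all genes from 0 to 0.24 at 24 h and from 0.07 to 0.22 at 96 h, and DESeq2 moved it from 0 to −0.13 at 6 h and to −0.15 at 12 h, and from −0.04 to −0.19 for 6 against 3 h. With 2 libraries at 0 h and 24 h, calls of low genes rest on few counts, and levels under 3 counts per library cannot be told from 0.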
